A study of Drosophila melanogaster with 16 samples.

Results

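The genes described here are 7 amino acid and peptide transporter genes of Drosophila melanogaster, sbm, slif, mnd, JhI-21, NAAT1, path and yin. They were taken by symbol from a table of 17873 counted genes, of which 9801 passed a filter on low counts and were tested, and all 7 were among the genes tested. RNA of dissected larval midguts was sequenced in 16 libraries, 4 in each of 4 groups. In the Hnf4i groups (mex-GAL4 / UAS-Hnf4 RNAi) a hairpin against Hnf4, a nuclear receptor gene, was expressed in enterocytes, and the control groups were mex-GAL4 / attP40. Both groups were dissected on day 4 after egg laying, early in the third larval instar (L3), with 10 midguts per library, and on day 3, late in the second instar (L2), with 30 midguts per library. All larvae carried the enterocyte driver mex-GAL4 and lived on yeast alone at 25 °C in vials of 40 embryos. The hairpin was a single construct inserted at the attP40 site that controls carried empty, and the fathers of Hnf4i and control larvae came from different stocks.

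Dietary protein is broken down in the gut lumen and enters enterocytes as free amino acids and short peptides. Members of the SLC7 family exchange or carry amino acids, some of them as light chains bound to the CD98 heavy chain, whereas SLC6 transporters are driven by the sodium gradient, and SLC36 and SLC15 transporters by protons. Amino acids taken up or released from lysosomes activate the kinase complex TORC1, which promotes growth. Among the SLC7 members, slif (slimfast) encodes a cationic amino acid transporter known for its part in amino acid sensing by the fat body, mnd (minidiscs) and JhI-21 encode relatives of the mammalian leucine transporters, and sbm (sobremesa) encodes a further amino acid transporter of this family. NAAT1 encodes an SLC6 transporter of nutrient amino acids in the gut, path (pathetic) an SLC36 transporter and yin an SLC15 oligopeptide transporter.

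In the BDGP6 build all 7 genes are protein coding. The gene for sbm (FBgn0030574) spans positions 14584733 to 14602580 of chromosome X on the minus strand, NAAT1 (FBgn0029762) positions 5405238 to 5410849 and yin (FBgn0265575) positions 3862966 to 3871939 of the same strand and chromosome. On chromosome arm 3L lie mnd (FBgn0002778, positions 14985100 to 14991667, plus strand), path (FBgn0036007, positions 9494555 to 9505328, minus strand) and slif (FBgn0037203, positions 22881045 to 22893821, plus strand). JhI-21 (FBgn0028425) lies on the minus strand of 2L, at positions 12051755 to 12056042. The exons of JhI-21 share 295 bp with PLCXD on the opposite strand, and those of yin share 242 bp with CG2930, a second SLC15 gene. Whether strand was used in counting is not given, so reads of the shared stretches cannot be told apart for these pairs.

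Libraries held 44546248 to 83418453 counts. Levels are given as counts scaled to library size by the trimmed mean of M-values (TMM-scaled CPM), so a level is a share of the RNA sequenced and not an amount per midgut. In bulk midgut RNA, fewer cells of a type and less RNA per cell cannot be told apart. All 5 enterocyte markers examined were tested, and their summed level was 3205 to 3928 CPM in Hnf4i and 2935 to 3211 CPM in control midguts on day 4, and 1764 to 1778 and 1792 to 1889 CPM on day 3. The trypsin gene betaTry had the highest level of the 5, with 1916 to 2602 CPM in Hnf4i and 1923 to 2177 CPM in control midguts on day 4, and 940.1 to 1001 and 937 to 1038 CPM on day 3. The marker mex1 stood at 388 to 474 CPM in Hnf4i and 329 to 384 CPM in control midguts on day 4, and at 259.5 to 328 and 344 to 365 CPM on day 3. Also on day 4, Myo31DF (483 to 514 against 390 to 441 CPM) and alphaTry (233 to 383 against 134 to 197 CPM) were higher in Hnf4i midguts. So was mex1, whereas betaTry and nub overlapped between the genotypes. Between the days all 5 were higher on day 4 in Hnf4i midguts. In control midguts betaTry, alphaTry and, narrowly, Myo31DF were higher on day 4, and mex1 and nub overlapped. Of 7 fat body markers 6 were tested. Their summed level was 1116, 855, 12.8 and 2823 CPM in Hnf4i replicates 1 to 4 on day 4, against 23.3, 30.5, 141 and 36.5 CPM in control replicates. On day 3 it was lower but also unequal, at 18.1 to 41.6 CPM in Hnf4i and 11.7 to 15.7 CPM in control midguts. Its part in the day 3 results was not tested. The 4 libraries with over 10 CPM of Lsp1beta, a fat body storage protein gene, are replicates 1, 2 and 4 of Hnf4i and replicate 3 of control on day 4. Results that depend on them are also given without them, which leaves 1 Hnf4i library of day 4, replicate 3. Summed visceral muscle markers stood at 1744 to 2637 CPM in Hnf4i and 2855 to 3305 CPM in control midguts on day 4, and at 2742 to 3702 and 3404 to 3739 CPM on day 3. The Malpighian tubule markers, with 1 of 3 genes tested, summed to 50.0 CPM in Hnf4i replicate 2 of day 4, against 0.471 to 1.51 CPM in the other Hnf4i libraries and 0.266 to 1.03 CPM in the control libraries of that day. Of 4 salivary gland markers 0 passed the count filter. Hnf4 itself averaged 64.6 ± 4.31 CPM in Hnf4i and 128 ± 4.09 CPM in control midguts on day 4, and 48.4 ± 2.00 and 91.9 ± 2.69 CPM on day 3 (SD, n = 4 each). Its log2 fold change in Hnf4i over control was -0.98 on day 4 and -0.93 on day 3 (edgeR adjusted p = 3.90e-10 and 2.01e-09).

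The 7 transporters differed widely in level, and their order changed between the days. Per kb of exon, sbm had the highest level on day 4, at 70.0 ± 12.2 CPM per kb in Hnf4i and 64.7 ± 7.29 CPM per kb in control midguts. Among all genes tested this placed sbm at the 88.9th and 87.9th percentile. On day 3 it was in the middle of the order of the 7, at 7.96 ± 1.13 and 7.67 ± 0.307 CPM per kb, near the median gene at the 54.3rd and 53.6th percentile. The peptide transporter gene yin was lowest in each group, between 0.485 ± 0.116 CPM per kb in Hnf4i midguts on day 4 and 0.836 ± 0.0559 CPM per kb in Hnf4i midguts on day 3. In Hnf4i midguts on day 4 the order was sbm, slif, NAAT1, path, JhI-21, mnd, yin, and the libraries of neighbouring genes did not overlap. In control midguts of that day path stood above NAAT1, at 25.9 ± 3.98 and 9.39 ± 1.67 CPM per kb, and the libraries of slif and path overlapped. On day 3 slif led in Hnf4i midguts with 28.2 ± 2.22 CPM per kb, whereas in control midguts NAAT1 (19.8 ± 2.23 CPM per kb) and slif (18.6 ± 1.64 CPM per kb) overlapped at the top. The libraries of JhI-21 and mnd overlapped in both genotypes on day 3. Summed over the 7 genes, the level was 150.2 ± 11.8 CPM per kb in Hnf4i and 133 ± 5.51 CPM per kb in control midguts on day 4, and 73.0 ± 1.62 and 71.3 ± 4.15 CPM per kb on day 3. The share of sbm in that sum was 46.5 ± 5.87% and 48.6 ± 5.03% on day 4, against 10.9 ± 1.71% and 10.8 ± 0.306% on day 3.

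**Figure D1:**
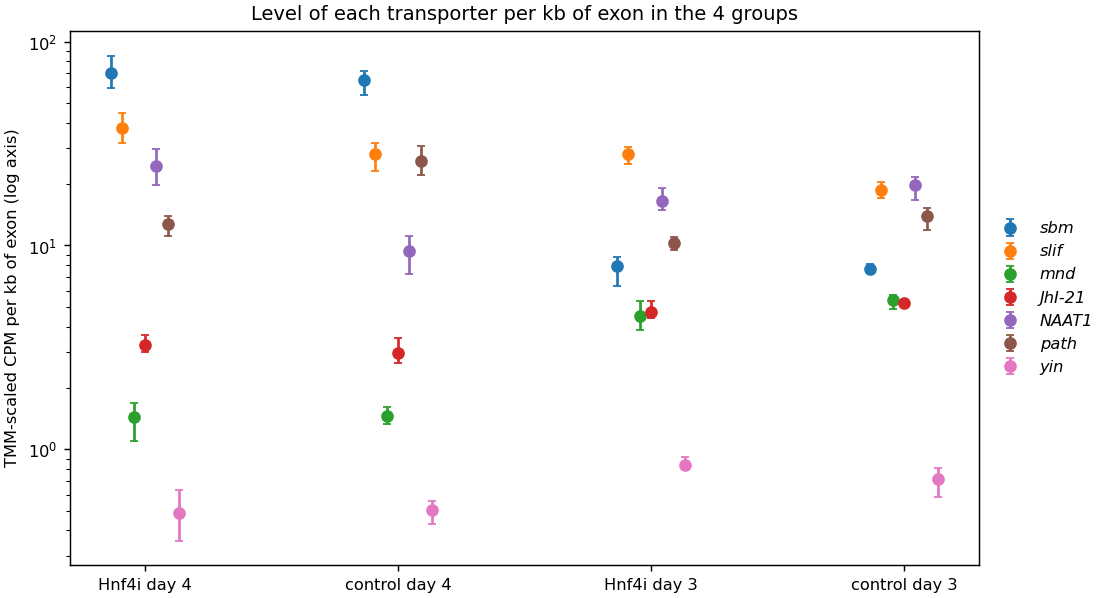
Level of each of the 7 transporter genes in the 4 groups, as TMM-scaled CPM per kb of annotated exon on a log axis; points are means of 4 libraries and whiskers run from the lowest to the highest library. The points for sbm stand at 70.0 and 64.7 CPM per kb on day 4 and at 7.96 and 7.67 on day 3, while those for mnd and yin are lower on day 4 than on day 3.

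The comparison of day 4 with day 3 asks how the transporters changed as larvae passed from the second to the third instar. In Hnf4i midguts 5 of the 7 were called, with sbm and NAAT1 higher and mnd, JhI-21 and yin lower on day 4. In control midguts all 7 were called, with sbm, path and slif higher and mnd, NAAT1, JhI-21 and yin lower. A gene was called when edgeR's quasi-likelihood test gave a Benjamini-Hochberg adjusted p under 0.05 over all genes tested and the log2 fold change was at least 0.5 in either direction. Of all 9801 genes, 42.7% were called in Hnf4i midguts, 18.8% higher and 23.9% lower on day 4, and 39.2% in control midguts, 17% higher and 22.2% lower. In TMM-scaled CPM the 4 libraries of day 4 lay wholly above or below those of day 3 for all 7, in both genotypes. So did those of 58.4% of all genes in Hnf4i and 59% in control midguts. With scaling by library totals NAAT1, path and slif overlapped between the days in Hnf4i midguts, and slif in control midguts. The median absolute log2 fold change of the 7 was 0.58 in Hnf4i midguts, where that of all genes tested was 0.49, and 0.90 in control midguts, where that of all genes was 0.45. Markers of other cells differed between the days too. All 3 tracheal markers were tested. In Hnf4i midguts they summed to 12.0 to 22.9 CPM on day 4 against 43.6 to 57.7 CPM on day 3. In control midguts they summed to 19.4 to 23.0 against 30.1 to 50.4 CPM. Gasp and trh were lower on day 4 in both genotypes. The third marker, btl, was higher on day 4 in control midguts (4.58 to 5.45 against 3.27 to 4.21 CPM) and overlapped in Hnf4i midguts. Both midgut progenitor markers were tested. In Hnf4i midguts they summed to 9.77 to 12.2 CPM on day 4 against 5.37 to 8.92 CPM on day 3. In control midguts they summed to 11.6 to 13.8 against 7.23 to 9.15 CPM. That sum followed esg, which in control midguts stood at 10.4 to 12.0 CPM on day 4 against 5.03 to 6.55 CPM on day 3. The other marker, Delta, was lower on day 4 in control midguts (0.996 to 1.79 against 1.81 to 2.66 CPM) and overlapped in Hnf4i midguts. The part of these cells and of visceral muscle in the changes between days was not tested.

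**Figure D2:**
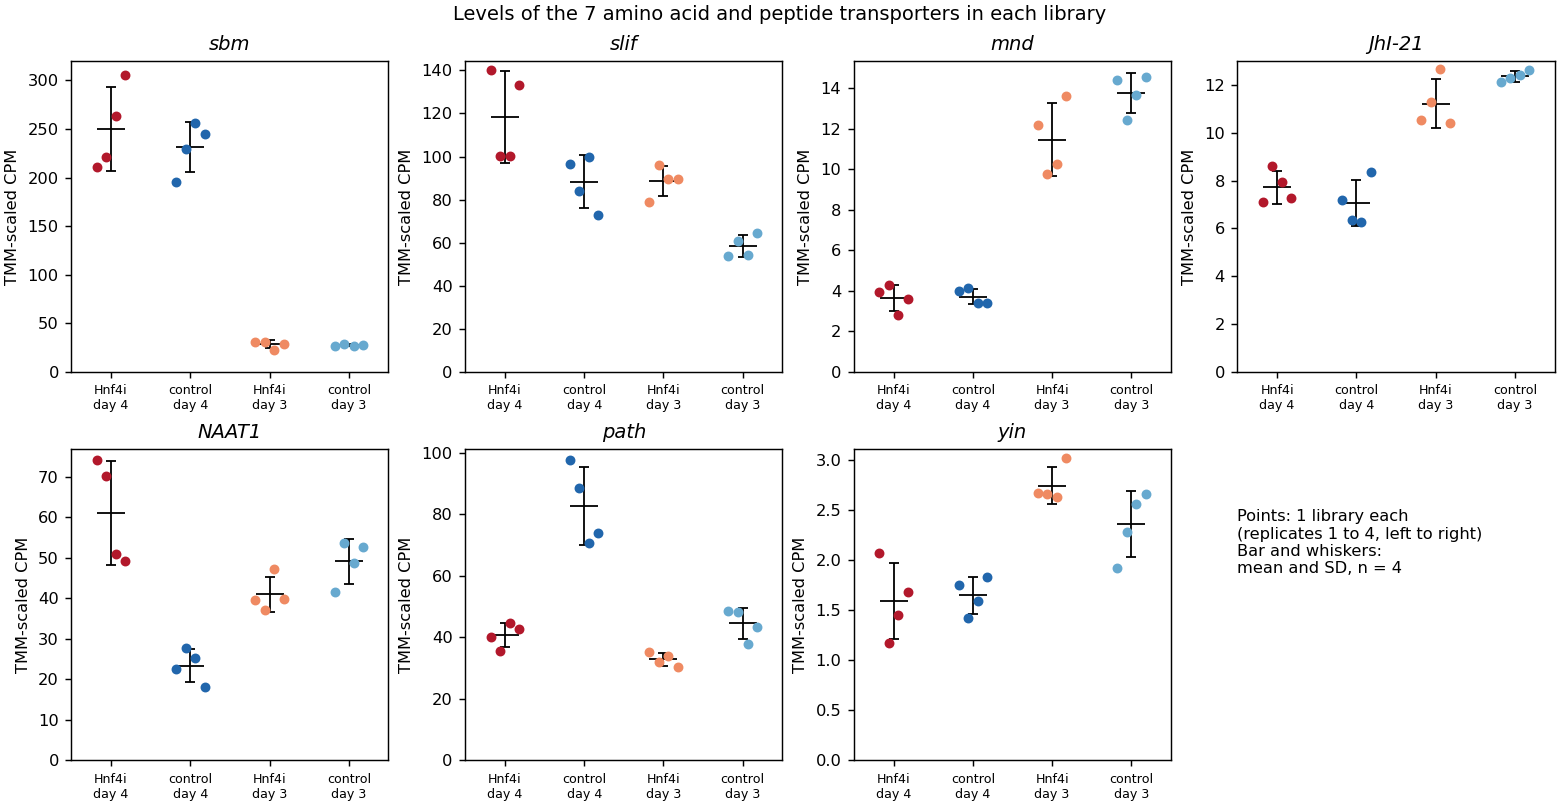
TMM-scaled CPM of each transporter gene in every library, by group; points are libraries, and the bar and whiskers are the mean and SD of 4 libraries. The sbm libraries lie between 196 and 306 CPM on day 4 and between 22.7 and 31.2 CPM on day 3, whereas the NAAT1 libraries of control midguts on day 4 (18.1 to 27.7 CPM) lie below those of the other groups.

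The largest change of the 7 was in sbm. Its level in Hnf4i replicates 1 to 4 was 211, 221, 263 and 306 CPM on day 4, against 31.2, 31.2, 22.7 and 28.8 CPM on day 3. In control replicates it was 196, 229, 256 and 244 CPM on day 4, against 26.6, 28.9, 26.5 and 27.7 CPM on day 3. The days were thus far apart in each genotype, and the genotypes overlapped on each day. The rise was 8.79-fold in Hnf4i midguts (log2 fold change 3.14, SE 0.13, edgeR adjusted p = 4.76e-12) and 8.44-fold in control midguts (3.08, SE 0.13, adjusted p = 4.77e-12). No effect of silencing on sbm passed the test, with a log2 fold change in Hnf4i over control of 0.11 on day 4 (95% interval -0.13 to 0.36, adjusted p = 0.522) and 0.05 on day 3 (-0.20 to 0.31, adjusted p = 0.887). The difference between these, the interaction of silencing and day, was 0.06 (-0.29 to 0.41, adjusted p = 0.894). Without the 4 libraries with fat body transcripts the day 4 effect on sbm was 0.27, a value that rests on 1 Hnf4i library of day 4.

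Of the other SLC7 genes, mnd fell most. It stood at 3.95, 4.28, 2.79 and 3.59 CPM in Hnf4i replicates on day 4, against 12.2, 9.79, 10.3 and 13.6 CPM on day 3. Control replicates had 3.99, 4.12, 3.38 and 3.39 CPM on day 4, against 14.4, 12.4, 13.7 and 14.6 CPM on day 3. The highest library of day 4, at 4.28 CPM, was thus well below the lowest of day 3, at 9.79 CPM. On day 4 mnd fell to 31.9% of its day 3 level in Hnf4i midguts (log2 fold change -1.65, SE 0.13, edgeR adjusted p = 8.53e-09) and to 27.1% in control midguts (-1.89, SE 0.13, adjusted p = 1.71e-09). Between the genotypes mnd did not pass the test, with -0.03 on day 4 (95% interval -0.32 to 0.26, adjusted p = 0.909) and -0.26 on day 3 (-0.53 to -0.0021, adjusted p = 0.254). Without the 4 libraries with fat body transcripts the day 4 value was -0.44, and the fall of mnd in Hnf4i midguts between the days was -2.03. Both values rest on 1 Hnf4i library of day 4, replicate 3, which had the lowest mnd level of its group (2.79 CPM).

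JhI-21, an SLC7 gene like mnd, fell as well, by a smaller amount. Its level was 7.10, 8.61, 7.93 and 7.28 CPM in Hnf4i replicates on day 4, against 10.5, 11.3, 12.7 and 10.4 CPM on day 3. In control replicates it was 7.20, 6.37, 6.26 and 8.35 CPM on day 4, against 12.1, 12.3, 12.4 and 12.6 CPM on day 3, a group with an SD of 0.222 CPM. The 2 days did not overlap in either genotype, with log2 fold changes of -0.54 in Hnf4i (SE 0.10, edgeR adjusted p = 9.50e-05) and -0.81 in control midguts (SE 0.10, adjusted p = 1.11e-06). The Hnf4i value lies near the fold minimum, and it was -0.48 without Hnf4i replicate 3 of day 3. It was just under the minimum, at -0.50, without the 4 libraries with fat body transcripts, with 1 Hnf4i library of day 4 left. Neither the silencing effect on day 4 (0.14, 95% interval -0.07 to 0.34, adjusted p = 0.339) nor that on day 3 (-0.14, -0.34 to 0.06, adjusted p = 0.496) passed the test. PLCXD, the gene that shares 12.5% of the exon length of JhI-21, averaged 0.315 CPM in Hnf4i and 0.124 CPM in control midguts on day 4.

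The cationic amino acid transporter gene slif was called higher in Hnf4i than in control midguts on day 3, and higher on day 4 than on day 3 in control midguts. Hnf4i replicates had 140.0, 100.3, 100.1 and 133 CPM on day 4, against 96.4, 84.2, 99.6 and 72.9 CPM in control replicates. On day 3 they had 79.1, 95.9, 89.6 and 89.4 CPM, against 54.0, 60.9, 54.4 and 64.6 CPM in control replicates. All 4 Hnf4i libraries were above all 4 control libraries on each day, though on day 4 the nearest libraries, at 100.1 and 99.6 CPM, almost met. In Hnf4i over control the log2 fold change was 0.42 on day 4 (SE 0.12, edgeR adjusted p = 0.0125), under the fold minimum, and 0.60 on day 3 (SE 0.12, adjusted p = 0.00279), past it. The interaction was -0.17 (95% interval -0.53 to 0.18, adjusted p = 0.628), so a difference of the silencing effect between the days was not shown. On day 4 slif was higher than on day 3 by 0.42 in Hnf4i midguts (SE 0.12, adjusted p = 0.00461, under the fold minimum) and by 0.59 in control midguts (SE 0.12, adjusted p = 3.06e-04). That last call was lost with scaling by library totals (0.30), while the silencing effect on day 4 then reached 0.53. Without the 4 libraries with fat body transcripts the value between days was 0.18 in Hnf4i midguts, with 1 library of day 4 left, and 0.51 in control midguts.

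The peptide transporter gene yin was read at low depth, with 54 to 175 counts per library. It stood at 2.07, 1.17, 1.45 and 1.68 CPM in Hnf4i replicates on day 4, against 2.66, 2.66, 2.62 and 3.01 CPM on day 3. Control replicates had 1.75, 1.42, 1.58 and 1.83 CPM on day 4, against 1.92, 2.28, 2.56 and 2.66 CPM on day 3. The day 4 libraries were below those of day 3, narrowly so in control midguts, where 1.83 and 1.92 CPM were neighbours. On day 4 yin fell to 58.3% of its day 3 level in Hnf4i midguts (log2 fold change -0.78, SE 0.17, edgeR adjusted p = 7.19e-04) and to 69.7% in control midguts (-0.52, SE 0.17, adjusted p = 0.0140). The control value moved under the fold minimum without control replicate 3 of day 3 (-0.48), control replicate 4 of day 3 (-0.46) or control replicate 2 of day 4 (-0.45). Silencing gave -0.04 on day 4 (95% interval -0.41 to 0.33, adjusted p = 0.899) and 0.22 on day 3 (-0.14 to 0.57, adjusted p = 0.564). The overlapping gene CG2930 was far higher, at 858 ± 62.7 CPM in Hnf4i and 1051 ± 76.7 CPM in control midguts on day 4, against 765 ± 72.9 and 876 ± 12.9 CPM on day 3, and did not pass the fold minimum in any comparison (0.17 for day 4 over day 3 in Hnf4i and 0.26 in control midguts).

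The comparison of Hnf4i with control midguts asks which transporters differ when Hnf4 is silenced in enterocytes. On day 4, 2 of the 7 were called, NAAT1 higher and path lower in Hnf4i midguts, beside 12.2% of all genes tested, 5.46% higher and 6.71% lower. The libraries of 3 of the 7 (NAAT1, path and slif) did not overlap between the genotypes on day 4, beside 24.2% of all genes. On day 3 only slif among the 7 was called, higher, beside 3.97% of all genes, 1.51% higher and 2.46% lower, and 2 of the 7 (path and slif) did not overlap, beside 17.4% of all genes. The median absolute log2 fold change of the 7 was 0.14 on day 4, where that of all genes was 0.20, and 0.26 on day 3, where that of all genes was 0.12. The interaction was called for 2 of the 7, NAAT1 and path, and for 5.03% of all genes, with 2.59% positive, as NAAT1 was, and 2.44% negative, as path was. Of the transporters not called, mnd had an interaction of 0.24 (95% interval -0.15 to 0.63, edgeR adjusted p = 0.524), JhI-21 of 0.27 (-0.01 to 0.56, adjusted p = 0.262) and yin of -0.26 (-0.77 to 0.26, adjusted p = 0.622). Without the 4 libraries with fat body transcripts, sbm, mnd, JhI-21, slif and yin had interactions of 0.22, -0.17, 0.29, -0.32 and -0.38, and again none of the 5 passed the test.

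**Figure D3:**
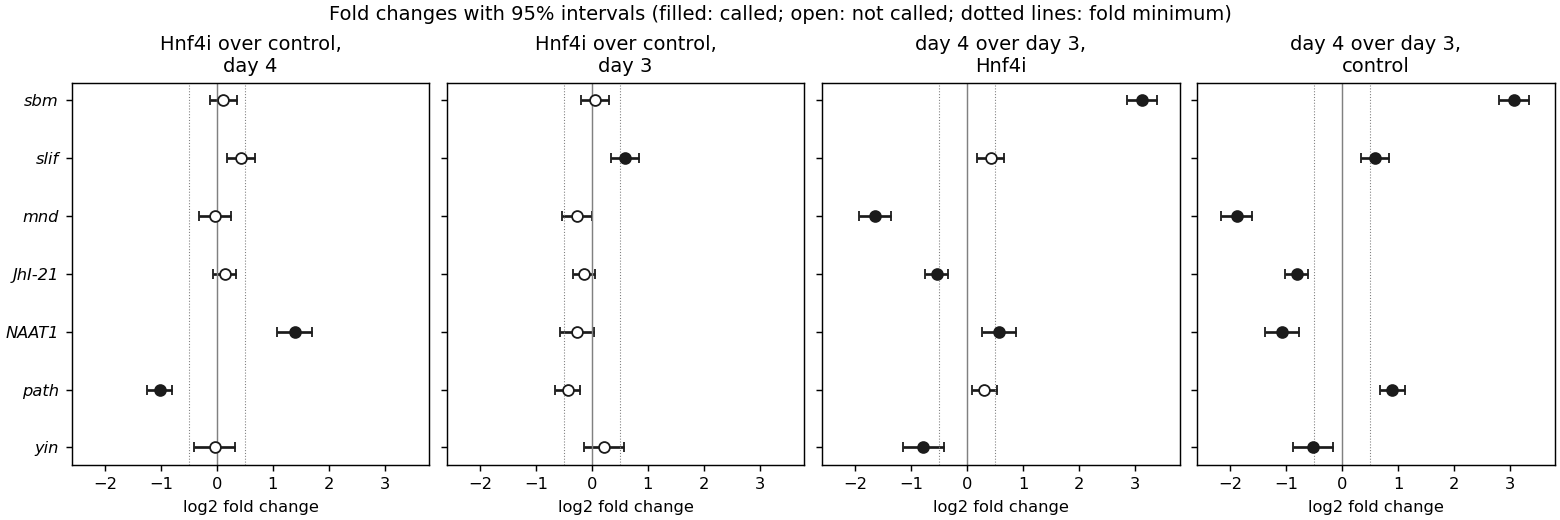
Log2 fold changes of the 7 transporter genes in 4 comparisons, with 95% intervals from edgeR; filled points were called, open points were not, and dotted lines mark the fold minimum of 0.5. The largest silencing effects are 1.39 for NAAT1 and -1.02 for path on day 4, and the largest changes between days are those of sbm (3.14 and 3.08).

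NAAT1, the sodium-coupled transporter gene, differed most between the genotypes. On day 4 it stood at 74.1, 70.1, 51.1 and 49.3 CPM in Hnf4i replicates, against 22.4, 27.7, 25.2 and 18.1 CPM in control replicates. On day 3 it stood at 39.6, 37.2, 47.3 and 39.8 CPM in Hnf4i replicates, against 41.5, 53.6, 48.7 and 52.8 CPM in control replicates. The genotypes were thus far apart on day 4 and overlapped on day 3. On day 4 NAAT1 was 2.62-fold higher in Hnf4i midguts (log2 fold change 1.39, SE 0.15, edgeR adjusted p = 1.89e-06), and on day 3 the value was -0.26 (95% interval -0.57 to 0.04, adjusted p = 0.353). The interaction was 1.65 (SE 0.20, adjusted p = 1.00e-04).

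Between the days NAAT1 went opposite ways in the 2 genotypes. In Hnf4i midguts it averaged 61.1 ± 12.8 CPM on day 4 and 41.0 ± 4.40 CPM on day 3 (SD, n = 4 each; log2 fold change 0.58, SE 0.14, edgeR adjusted p = 0.00191). In control midguts it averaged 23.3 ± 4.14 CPM on day 4 and 49.1 ± 5.54 CPM on day 3, a fall to 47.6% (-1.07, SE 0.15, adjusted p = 5.69e-06). The call in Hnf4i midguts was lost with scaling by library totals (0.32, adjusted p = 0.0644), without Hnf4i replicate 1 of day 4 (0.47) and without the 4 libraries with fat body transcripts (0.32, adjusted p = 0.164). The difference between genotypes on day 4 remained called without those 4 libraries, at 1.19 (adjusted p = 4.77e-04), with 1 Hnf4i library of day 4 then assumed to vary like the other groups.

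The SLC36 transporter gene path moved the other way under silencing. On day 4 it stood at 40.2, 35.5, 44.7 and 42.7 CPM in Hnf4i replicates, against 97.9, 88.6, 70.8 and 73.8 CPM in control replicates. On day 3 it stood at 35.1, 32.0, 34.0 and 30.4 CPM in Hnf4i replicates, against 48.5, 48.3, 37.9 and 43.3 CPM in control replicates. Every Hnf4i library was below every control library of its day. On day 4 path fell to 49.2% of the control level in Hnf4i midguts (log2 fold change -1.02, SE 0.11, edgeR adjusted p = 1.38e-06). On day 3 the value was -0.44 (SE 0.11, adjusted p = 0.0128), under the fold minimum, and it reached the minimum at -0.50 without control replicate 3.

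Between the days path averaged 40.8 ± 3.99 CPM on day 4 and 32.9 ± 2.12 CPM on day 3 in Hnf4i midguts, a log2 fold change of 0.31 (SE 0.11, edgeR adjusted p = 0.0159) that did not reach the fold minimum, with or without the 4 libraries with fat body transcripts (0.45 without them). In control midguts it was higher on day 4, at 82.8 ± 12.7 CPM, than on day 3, at 44.5 ± 5.02 CPM (0.90, SE 0.10, adjusted p = 9.78e-07). The interaction was -0.59 (SE 0.15, adjusted p = 0.0208). It was -0.49 (adjusted p = 0.113) without the 4 libraries with fat body transcripts and -0.50, just under the minimum, without control replicate 1 of day 4, where path had its highest value. The control libraries of day 4 enter both the comparison of genotypes on day 4 and that of days in control midguts, and the other groups are shared in the same way, so these values are not independent.

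Fat body markers were unequal between the day 4 groups, and the 3 genes whose libraries did not overlap there can be read against them. Hnf4i replicate 3, with 12.8 CPM of summed fat body markers, below every control library of day 4, had 51.1 CPM of NAAT1, 44.7 CPM of path and 100.1 CPM of slif. For NAAT1 and path this library lay with the other Hnf4i libraries, apart from the control libraries. For slif it was level with Hnf4i replicate 2 (100.3 CPM), which had 855 CPM of fat body markers. Control replicate 3, with 141 CPM of these markers, was next to both at 99.6 CPM. Without the 4 libraries with fat body transcripts the slif value was 0.27 and that for path was -0.93. With all libraries they were 0.42 and -1.02, and slif was under the fold minimum either way. Without them Hnf4i replicate 3 is the only Hnf4i library of day 4. The part of fat body and visceral muscle RNA in these results was not tested.

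**Figure D4:**
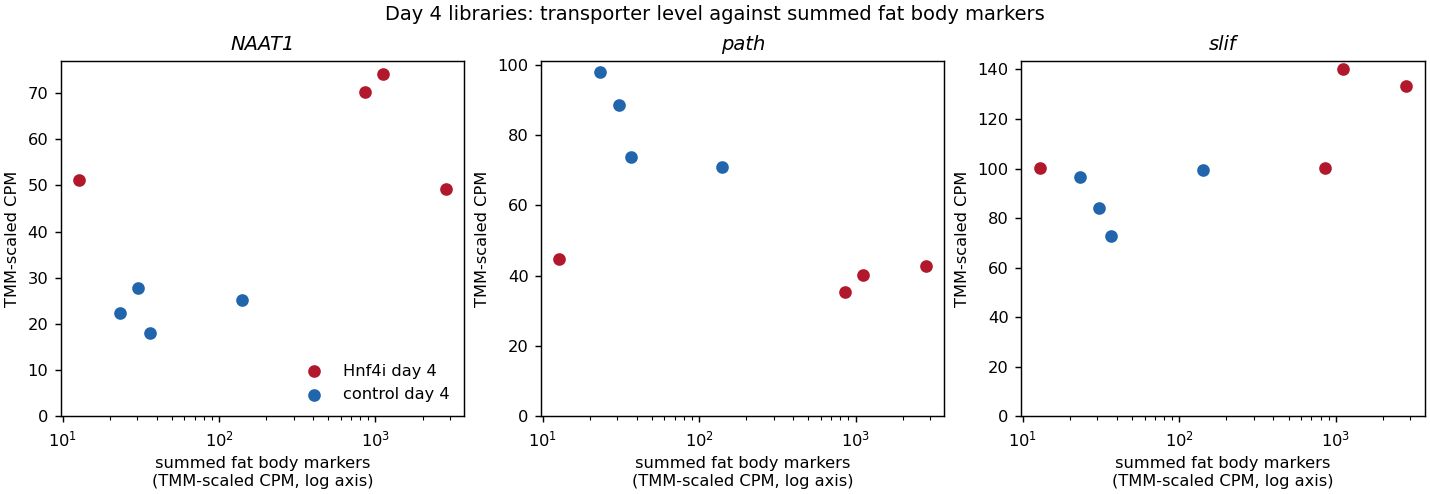
TMM-scaled CPM of NAAT1, path and slif in the 8 libraries of day 4 against the summed TMM-scaled CPM of fat body markers on a log axis; each point is a library. The Hnf4i library at 12.8 CPM of fat body markers has 51.1 CPM of NAAT1, 44.7 CPM of path and 100.1 CPM of slif.

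Beyond the 7 genes, 38 further amino acid and peptide transporter genes and partners were listed, of which 29 passed the count filter. On day 4, 3 of the 29 were higher and 3 lower in Hnf4i midguts, with a median log2 fold change of 0.06 where that of all genes was 0.02, beside 5.46% of all genes called higher and 6.71% called lower. On day 3, 1 was lower (acs) and 0 were higher by edgeR or DESeq2, with 1 higher at an unadjusted p under 0.05 (median -0.06, all genes 0.01), beside 1.51% of all genes higher and 2.46% lower. From day to day, 7 were higher and 7 lower on day 4 in Hnf4i midguts (median 0.16, all genes -0.01), and 3 higher and 7 lower in control midguts (median 0.10, all genes 0.01), where DESeq2 called 5 higher and 7 lower. The shares of all genes called were 18.8% higher and 23.9% lower for Hnf4i, and 17% higher and 22.2% lower for control midguts. The interaction was called for 3, 2 of them positive, beside 5.03% of all genes.

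The largest log2 fold change among the 29 was that of acs, an SLC36 gene like path, between the days in control midguts. It stood at 10.3, 17.0, 13.8 and 12.7 CPM in Hnf4i replicates on day 4, against 65.4, 67.3, 90.5 and 76.4 CPM in control replicates. On day 3 its means were 1.96 CPM in Hnf4i and 3.34 CPM in control midguts. The log2 fold change in Hnf4i over control was -2.48 on day 4 (SE 0.14, edgeR adjusted p = 6.80e-10) and -0.76 on day 3 (SE 0.16, adjusted p = 0.00538), with an interaction of -1.72 (SE 0.21, adjusted p = 9.29e-05). Between the days acs was higher on day 4 by 2.77 in Hnf4i and by 4.49 in control midguts. Under silencing acs was thus called lower on each day, and path on day 4.

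Higher in Hnf4i midguts on day 4, as NAAT1 was, were its SLC6 relative CG1698 and the SLC7 gene CG5535. CG1698 had 48.3, 37.7, 54.3 and 47.6 CPM in Hnf4i replicates, against 12.3, 12.1, 25.7 and 13.1 CPM in control replicates (log2 fold change 1.57, SE 0.26, edgeR adjusted p = 1.93e-04, interaction 1.51, adjusted p = 0.0138). It also went opposite ways between the days, by 0.83 in Hnf4i (adjusted p = 0.00782) and -0.68 in control midguts (adjusted p = 0.0269), but the control value was lost without control replicate 3 of day 3 (-0.49) or control replicate 1, 2 or 4 of day 4 (-0.58, -0.57 and -0.60). The Hnf4i value was lost with scaling by library totals (0.57, adjusted p = 0.0547).

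CG5535 had 23.9, 23.6, 21.5 and 23.5 CPM in Hnf4i replicates on day 4, against 12.5, 10.9, 10.5 and 10.5 CPM in control replicates. The value on day 4 was 1.06 (SE 0.08, edgeR adjusted p = 6.37e-08), with an interaction of 1.12 (adjusted p = 2.73e-05). Between the days it was lower on day 4 in both genotypes, with -0.63 in Hnf4i and -1.76 in control midguts, and by the interaction the genotypes differed in the size of the fall.

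**Figure D5:**
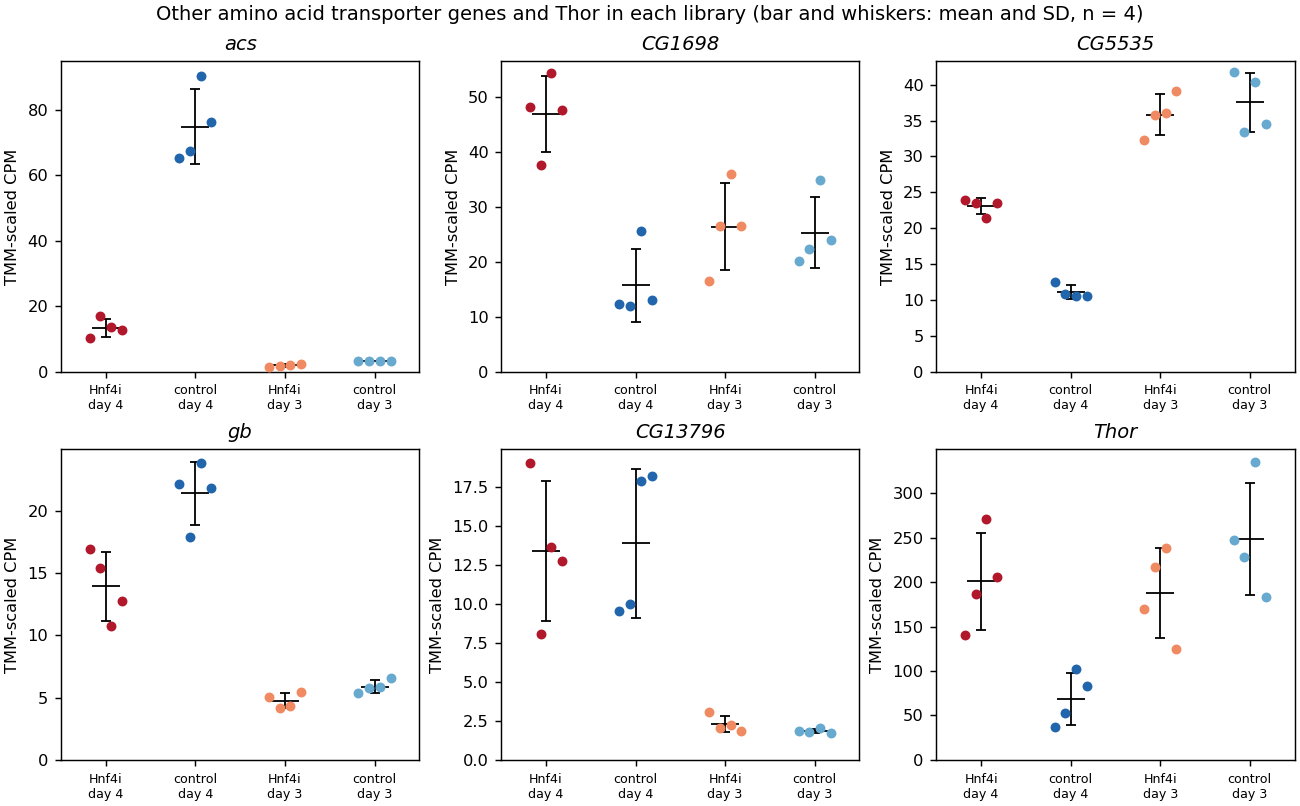
TMM-scaled CPM of acs, CG1698, CG5535, gb, CG13796 and Thor in every library, by group; points are libraries, and the bar and whiskers are the mean and SD of 4 libraries. The acs libraries of control midguts on day 4 (65.4 to 90.5 CPM) stand above the Hnf4i libraries of that day (10.3 to 17.0 CPM), and CG1698, CG5535 and Thor are higher in Hnf4i than in control midguts on day 4.

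Among the other SLC7 genes and the CD98 heavy chain, gb (genderblind), a relative of the cystine-glutamate exchanger, was lower in Hnf4i midguts on day 4 (13.9 ± 2.76 CPM, against 21.4 ± 2.53 CPM in control midguts; log2 fold change -0.62, edgeR adjusted p = 0.00183). On day 4 gb was higher than on day 3 by 1.56 in Hnf4i and 1.86 in control midguts, whereas CG1607 was lower (log2 fold changes -1.51 and -1.19). CD98hc, the heavy chain partner, had 102 to 120.0 CPM in Hnf4i midguts on day 4, against 67.9 to 73.4 CPM on day 3 (0.60, adjusted p = 2.53e-07), a call lost with scaling by library totals (0.34). In control midguts CD98hc was also higher on day 4, by a value just under the minimum (0.50, adjusted p = 2.95e-06). In the SLC6 list CG13796 rose on day 4 by 2.54 in Hnf4i and 2.90 in control midguts, and in the SLC36 list CG4991 was lower on day 4 (-0.79 and -1.20). On day 4 CG4991 was higher in Hnf4i than in control midguts by 0.59 (adjusted p = 0.00977), a call lost without Hnf4i replicate 1 (0.38) and without the 4 libraries with fat body transcripts (0.38, adjusted p = 0.113). CG8785, a further SLC36 gene, was called between the days in Hnf4i midguts, with 0.51 for day 4 over day 3 (adjusted p = 4.21e-06), beside 0.23 in control midguts (adjusted p = 0.00683, under the minimum). It fell under the minimum with scaling by library totals (0.24) and without any of 4 Hnf4i replicates, 1 or 4 of day 3 or 1 or 3 of day 4 (0.47 to 0.50).

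Genes of amino acid sensing and signalling through TORC1 were followed as a list of 19, of which 18 were tested. On day 4, edgeR and DESeq2 each called 3 higher and 0 lower in Hnf4i midguts, with 1 lower at an unadjusted p under 0.05, where edgeR called 5.46% of all genes higher and 6.71% lower. On day 3, 0 of the 18 were called by either tool, with 5 at an unadjusted p under 0.05, where 3.97% of all genes were called. Thor encodes 4E-BP, a repressor of translation that TORC1 inhibits. It stood at 140.2, 186, 271 and 206 CPM in Hnf4i replicates on day 4, against 37.3, 53.3, 102 and 83.1 CPM in control replicates (log2 fold change 1.54, SE 0.29, edgeR adjusted p = 6.89e-04). On day 3 Thor averaged 187 CPM in Hnf4i and 248 CPM in control midguts, and the interaction was 1.95 (adjusted p = 0.00579). Without the 4 libraries with fat body transcripts the day 4 values in Hnf4i over control were 2.25 for Thor, -2.31 for acs, 2.15 for CG1698 and 0.95 for CG5535. These values rest on 1 Hnf4i library of day 4, replicate 3. Of the Hnf4i libraries of that day it had the highest level of Thor and of CG1698 (54.3 CPM). The control library left out, replicate 3, was the highest control library of day 4 for both genes. The day 4 level of Thor in control midguts was the lowest of the 4 groups, as it was for NAAT1. The other 2 genes called were Nprl3 (0.62, adjusted p = 1.18e-04), a subunit of the GATOR1 complex, and REPTOR-BP (0.53, adjusted p = 0.00196), a transcription factor gene downstream of TORC1, whose value was 0.49 without control replicate 1.

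From day to day, 5 genes of that list were higher and 1 lower on day 4 in Hnf4i midguts, and 3 higher and 1 lower in control midguts, beside 42.7% and 39.2% of all genes called in either direction. Iml1, which encodes a GATOR1 subunit, was higher on day 4 by 1.26 in Hnf4i (edgeR adjusted p = 5.28e-11) and 1.32 in control midguts (adjusted p = 2.65e-11), and Thor was lower in control midguts (-1.85, adjusted p = 2.80e-05). A list of 4 genes covered the response to amino acid shortage through the kinase Gcn2 and the wider integrated stress response. Between the genotypes 0 of the 4 were called on either day by edgeR or DESeq2. At an unadjusted edgeR p under 0.05 there were 2 on day 4 and 0 on day 3. Of all genes, edgeR called 12.2% on day 4 and 3.97% on day 3, so 0 of 4 is near those shares. Between the days PEK, a kinase gene of the integrated stress response, was higher on day 4 in Hnf4i midguts (0.51, edgeR adjusted p = 9.51e-06), and Gcn2 and the asparagine synthetase gene AsnS were lower in control midguts (both -0.51, adjusted p = 4.30e-06 and 6.42e-06). All 3 values were near the fold minimum. Gcn2 moved under it without control replicate 2 of day 3 (-0.47) or of day 4 (-0.50), and AsnS without control replicate 3 of day 3 (-0.46). PEK did so without Hnf4i replicate 2 or 3 of day 3 (0.48 each) or replicate 3 of day 4 (0.46), and with scaling by library totals (0.25).

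For each of the 7 genes, the genes with the most similar pattern were found as those with the smallest root mean square difference of centred log2 CPM over the 16 libraries. For sbm these were Acbp6 (0.25) and shd (0.27), where the median of the 5985 genes compared was at 1.55. Acbp6 belongs to the acyl-CoA binding proteins and averaged 3819 CPM in Hnf4i and 3418 CPM in control midguts on day 4, against 368 and 397 CPM on day 3. The product of shd makes 20-hydroxyecdysone, and shd averaged 123 and 130 CPM on day 4, against 18.7 and 14.0 CPM on day 3. Nearest to mnd were vig (0.15) and CG11076 (0.16), and nearest to path were Cyp6v1, a cytochrome P450 gene (0.14), and CG33523 (0.16). Nearest to NAAT1 were CG9743 (0.29) and lncRNA:CR44138 (0.32), where the median of those genes was at 0.62. Nearest to JhI-21 were Prp5 (0.11) and Srlp (0.12), to slif elB (0.16) and Mip (0.17), and to yin Nup153 (0.17) and Rsf1 (0.18). Among the 7 themselves, JhI-21 and yin were closest (0.28) and sbm and mnd farthest apart (2.45). These distances come from the same libraries as the levels, and they describe the pattern only.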

How the data were processed

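RNA was extracted from pooled midguts and sequenced as stranded libraries of polyadenylated transcripts. Per the submitters' processing notes, which name tools without their order, FastQC 0.11.7, MultiQC 1.12, Trimmomatic 0.39, STAR 2.7.10b, the BDGP6 build, R 4.5.1 and DESeq2 1.49.3 were used. Salmon is among the programs the study names, with no data set given for it. How these reads were counted (tool, use of strand, annotation version) is not given in the sources used here. For each gene and library the authors deposited raw read counts. The CPM values deposited by the authors equal those counts divided by the library total, with a largest difference of 4.91e-11. Columns with the authors' own log2 fold changes and adjusted p-values were not used. The table also lists 6381 features that are not genes, mostly transposable elements, with 0.0365 to 0.0489% of a library's counts, which were left out, and 0 ERCC spike-in transcripts. Because scaling is relative, totals of RNA per midgut cannot be compared.

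In R 4.3.3 with edgeR 4.0.16, genes were filtered with filterByExpr (minimum count 10, minimum total 15) and scaled by TMM, and glmQLFit was run on all 16 libraries at once with 4 group means. The 5 comparisons were tested with glmQLFTest, two-sided, and adjusted by the Benjamini-Hochberg method over 9801 genes, with calls at an adjusted p under 0.05 and an absolute log2 fold change of at least 0.5. The interaction subtracts the day 3 effect of silencing from its day 4 effect. The fits were tested on simulated data. Levels per kb were divided by the union of annotated exons (Ensembl annotation of BDGP6). The labels number 4 replicates per group, each a pool of midguts, and p-values measure the spread between these pools. No libraries agreed within sampling noise.

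The 7 genes and all lists were chosen with earlier results of these data known. Named genes outside the 7 are Hnf4, up to 4 called genes per list and comparison with the largest change (group mean of 10 CPM or more), and the 2 genes nearest to each member by log2 CPM with a prior count of 2, among genes above the same level. CG2930, PLCXD and Nprl3 were named after their values were seen. Alternatives were size factors of the relative log expression type, library totals, other count filters, no fold minimum, DESeq2 1.42.0, a replicate block and leaving out each library, and, added after seeing the data, leaving out the 4 libraries with fat body transcripts.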

Additional observations from a re-analysis of the deposited data

Results flagged for a closer look

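In Hnf4i midguts on day 3, yin stood at 3.01 CPM in replicate 4, while the other 3 libraries lay between 2.62 and 2.66 CPM. The gap divided by the range of the group was 0.894, above Dixon's critical value of 0.829 for 4 samples. Over the 28 groups formed by 7 genes and 4 conditions, 1 such sample was found, and chance gives about 1 in 20 groups.

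The effect of silencing differed between the days for NAAT1 and for path by the interaction test of edgeR. For NAAT1 the difference was 1.65 on the log2 scale (adjusted p = 1.00e-04), with all 4 Hnf4i libraries above all 4 control libraries on day 4 and an overlap on day 3. For path it was -0.59 (adjusted p = 0.0208), with all 4 Hnf4i libraries below the control libraries on both days. The call for path was lost without control replicate 1 of day 4 (-0.50, just under the fold minimum). Without the 4 libraries with fat body transcripts, which leaves 1 Hnf4i library of day 4, the differences were 1.45 for NAAT1 and -0.49 for path.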

How the results depend on the processing

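Of 637 values computed for the 7 genes under alternatives, 609 kept their direction and their side of the thresholds, 6 gained a call, 11 lost one and 11 turned sign, all of these last without a call. Scaling by library totals moved the median log2 fold change of all genes by 0.105 and 0.072 for Hnf4i over control on days 4 and 3, and by -0.262 and -0.296 for day 4 over day 3 in Hnf4i and control midguts. Genes called higher and lower were then 763 and 517 (535 and 658 with TMM) for day 4 silencing, 213 and 212 (148 and 241) for day 3 silencing, 1116 and 3347 (1842 and 2339) between days in Hnf4i and 901 and 3361 (1668 and 2176) in control midguts. With those totals mnd and yin gave 0.08 and 0.06 for Hnf4i over control on day 4, in place of -0.03 and -0.04, and 16 in place of 19 comparisons of a transporter had groups that did not overlap. NAAT1, path and slif then overlapped between days in Hnf4i midguts, and slif in control midguts. In turn yin no longer overlapped between the genotypes on day 3.

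Without a fold minimum 2691 genes were called for silencing on day 4 and 821 on day 3, 6370 between days in Hnf4i and 6135 in control midguts, and 850 for the interaction, in place of 1193, 389, 4181, 3844 and 493. Transporters called for silencing on day 3 were then 2, path in addition to slif. Leaving out 1 library at a time gave 1 to 2 transporters for silencing on day 3 and 1 to 2 for the interaction, path being the gene gained or lost. In such fits the silencing value of mnd on day 4 ran between -0.11 and 0.07, with 0.00, 0.03 and 0.07 without control replicates 1 and 2 and Hnf4i replicate 3, and that of yin ran between -0.19 and 0.08, with 0.01 and 0.08 without control replicate 4 and Hnf4i replicate 2. The interaction of sbm ran between -0.05 and 0.13, with -0.04, -0.01 and -0.05 without Hnf4i replicate 3 of day 3, control replicate 1 of day 4 and Hnf4i replicate 4 of day 4.

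Leaving out the 4 libraries with fat body transcripts gave 3 transporters between days in Hnf4i midguts (5 in all libraries), 1 for the interaction (2 in all libraries) and 824 genes for the interaction, and the interaction of mnd was -0.17 in place of 0.24, and its silencing value on day 4 was -0.44 (adjusted p = 0.165) in place of -0.03, outside the range above. This leaves 1 Hnf4i library of day 4, assumed to vary like the other groups. Whether same-numbered libraries were handled together is not given in the labels. Their deviations correlated at -0.168 to 0.086, and differently numbered libraries were not compared, so pairing is left undecided. With a replicate block the transporters called numbered 2 and 1 for silencing on days 4 and 3, 5 and 7 between days in Hnf4i and control midguts and 2 for the interaction, the same counts as without it, beside 1157, 383, 4140, 3815 and 484 genes. DESeq2 gave the same 5 counts of transporters. The 54 to 175 counts of yin limit what can be detected for that gene.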
